A study of Mus musculus with 16 samples.

Results

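Oxidative phosphorylation (OXPHOS) is carried out by 5 protein complexes of the inner mitochondrial membrane, and most of their subunits are encoded in the nucleus. The nuclear OXPHOS genes described here are the 91 protein-coding autosomal genes of GENCODE release M21 whose symbols begin with Nduf, Sdha to Sdhd, Uqcr, Cox4 to Cox8 or Atp5, out of 21938 protein-coding genes. The 91 genes carry 90 symbols, because Atp5o has a pair of gene records, and 3 genes on the X chromosome with such symbols (Ndufa1, Ndufb11 and Cox7b) were left out. By symbol, 36 genes fell to complex I, 8 to complex I assembly factors, 4 to complex II, 8 to complex III, 17 to complex IV and 18 to complex V. Ndufa4 and Ndufa4l2 were counted with complex I by symbol, although NDUFA4 is now regarded as a subunit of complex IV.

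Complex I (NADH dehydrogenase) and complex II (succinate dehydrogenase) pass electrons to ubiquinone, complex III passes them to cytochrome c, and complex IV (cytochrome c oxidase) passes them to oxygen. Complex V, the ATP synthase, uses the resulting proton gradient to make ATP. T cells draw on this pathway when they are activated, and memory CD8+ T cells are known for a large respiratory reserve. Many nuclear OXPHOS promoters lie in CpG islands and carry sites for the transcription factors NRF1, GABP (an ETS factor), YY1 and ERRα.

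ATAC-seq, which tags accessible DNA with a transposase, had been run on 16 libraries of mouse CD8+ T cells in 4 groups of 4. WT (TPdh+/+) and TPdh-/- cells were each cultured into effector T cells (TE) with IL-2 or memory T cells (TM) with IL-15, after OT-I cells, which carry a transgenic T cell receptor for an ovalbumin peptide, had been activated with that peptide. TPdh-/- mice carry a conditional Pdha1 allele deleted by Cre under the Cd4 promoter, which acts in developing T cells, and so lack the pyruvate dehydrogenase complex that feeds pyruvate carbon into the TCA cycle. Young adult mice of both sexes had been used. The sources do not say whether WT mice carried the floxed allele or Cre, or which mouse gave which library, so the spread between replicates may be technical. The data were lists of peaks called in each library. The comparisons ask at which OXPHOS promoters peaks were called, and whether this differed between genotypes in TE and TM or between TM and TE in each genotype.

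Most nuclear OXPHOS genes had a promoter peak in some library, but none had one called in every library. A promoter peak is a deposited peak with its summit within 1000 bp of an annotated start of the gene, and where several lay there the one with the highest −log10 q-value was kept. Such a peak was present in at least 1 library for 82 of the 91 genes (90.1%, against 73.5% of all protein-coding genes), in 1 to 3 libraries for 23 genes and in at least 4 libraries for 59. Over all gene and library pairs, 438 peaks were present, 30.1% of pairs, against 20.3% over all genes. The highest number of libraries was 12, reached by Atp5b, the catalytic β subunit of the ATP synthase, Uqcrc2, a core protein of complex III, and Ndufb5, an accessory subunit of complex I. By the same measure 8 genes of the genome had a promoter peak in all 16 libraries, and none of them was an OXPHOS gene. Presence in at least 8 libraries was seen for 18 OXPHOS genes (19.8%, against 14.2% of all genes), and the median was 4 libraries for OXPHOS genes and 2 for all genes. OXPHOS genes also had more annotated starts, with a median of 4 against 3, which widens the window searched, and the part of this in the difference was not tested.

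The lists differed widely in depth and length, and this bears on the counts of peaks that follow. Background coverage, the fragments per base of background that the peak caller's own values imply, was 0.636 to 1.55 in WT TE, 0.173 to 0.445 in TPdh-/- TE, 0.354 to 0.572 in WT TM and 0.186 to 0.261 in TPdh-/- TM. The lists held 2290 to 86637 peaks. The weakest peak of a list had 5 to 9 fragments at its summit in WT TE, 4 to 5 in WT TM, 3 to 4 in TPdh-/- TE and 3 in each TPdh-/- TM library. Among 8 CD8 T cell marker genes, 7 had a promoter peak in some library, Cd8b1 in 8, Cd3d and Lck in 6 each, Ptprc in 4, Cd3g in 3 and Cd8a and Cd3e in 2 each, and Cd2 had one in none. Over these markers 24.2% of gene and library pairs had a peak, close to the 20.3% over all genes, of which 73.5% had one in some library. Of the markers of other cells, Cd4, Cd79a, Lyz2, Hba-a1 and Hbb-bs had none in any library, Csf1r had one in 4, Ms4a1 and Epcam in 2 each, and Itgam and Alb in 1 each. Pdha1, the targeted gene, had a promoter peak in 1 library each of WT TE, TPdh-/- TE and WT TM and in 3 of TPdh-/- TM, and a promoter peak cannot show whether an exon was deleted.

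The promoters below show the DNA at which these peaks lay. Each runs from 250 bases before to 50 bases after the RefSeq start on GRCm38, 5′ to 3′ on the strand of the gene, with matches to 8 short motifs in capitals. The motifs were searched on both strands, and overlapping matches were counted separately. They were GCGCANGCG for the factor NRF1, CCGGAAG for the ETS family and AAGATGGC for the factor YY1. GGGCGG stood for the SP family of factors, and the box CCAAT was searched as written. AAGGTCA stood for the receptor ERRα, CACGTG for the E-box bound by MYC and related factors, and TATAAA for the TATA box. Atp5b and Ndufb5 stand for the genes with peaks in most libraries.
Atp5b, chr10:128083057-128083356, plus strand: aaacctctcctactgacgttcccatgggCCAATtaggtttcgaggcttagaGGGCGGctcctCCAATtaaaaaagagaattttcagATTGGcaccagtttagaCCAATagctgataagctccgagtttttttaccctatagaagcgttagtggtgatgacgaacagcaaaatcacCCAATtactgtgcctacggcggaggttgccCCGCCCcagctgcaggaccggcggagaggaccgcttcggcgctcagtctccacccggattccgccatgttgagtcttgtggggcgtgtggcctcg
Ndufb5, chr3:32736813-32737112, plus strand: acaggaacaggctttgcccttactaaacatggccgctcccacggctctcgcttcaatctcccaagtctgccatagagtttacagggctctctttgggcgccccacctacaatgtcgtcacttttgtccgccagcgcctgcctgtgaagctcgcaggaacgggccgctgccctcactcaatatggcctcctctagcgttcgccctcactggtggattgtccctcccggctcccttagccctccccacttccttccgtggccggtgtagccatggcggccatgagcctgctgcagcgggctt
Atp5b holds 5 matches to CCAAT and 2 to the SP motif, and all 12 of its summits lie inside this window. Ndufb5 holds no match to any of the 8 motifs, so it is printed without capitals, and 10 of its 12 summits lie inside the window.

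Ndufb4, a complex I accessory subunit, and Uqcrc1, a complex III core protein, are shown because their presence differed most between TPdh-/- TM and WT TM, which was known when they were picked.
Ndufb4, chr16:37654319-37654618, minus strand: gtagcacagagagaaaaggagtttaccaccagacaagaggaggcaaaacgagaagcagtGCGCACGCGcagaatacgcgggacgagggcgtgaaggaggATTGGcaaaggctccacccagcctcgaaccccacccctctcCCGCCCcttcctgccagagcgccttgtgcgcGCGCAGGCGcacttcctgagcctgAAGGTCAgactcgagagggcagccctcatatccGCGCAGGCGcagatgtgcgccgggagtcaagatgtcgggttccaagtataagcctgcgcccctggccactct
Uqcrc1, chr9:108936398-108936697, plus strand: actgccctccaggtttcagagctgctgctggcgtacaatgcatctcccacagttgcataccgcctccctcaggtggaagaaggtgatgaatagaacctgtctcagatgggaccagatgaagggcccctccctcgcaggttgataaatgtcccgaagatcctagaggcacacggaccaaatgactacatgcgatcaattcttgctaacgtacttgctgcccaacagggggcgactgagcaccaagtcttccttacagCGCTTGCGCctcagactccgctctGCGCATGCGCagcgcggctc
Each holds 3 matches to the NRF1 motif, and in Uqcrc1 a pair of them overlaps on opposite strands. Of the summits, 7 of 8 at Ndufb4 and 5 of 7 at Uqcrc1 lie inside the window.

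The last set shows widely used subunits of complex IV beside a tissue-restricted one. Cox6a1 is the liver-type form of subunit VIa, and its heart and muscle form is Cox6a2. Cox7a2 and Cox7a1 are the liver and the heart and muscle forms of subunit VIIa, and were added after their peaks had been seen.
Cox6a1, chr5:115348909-115349208, minus strand: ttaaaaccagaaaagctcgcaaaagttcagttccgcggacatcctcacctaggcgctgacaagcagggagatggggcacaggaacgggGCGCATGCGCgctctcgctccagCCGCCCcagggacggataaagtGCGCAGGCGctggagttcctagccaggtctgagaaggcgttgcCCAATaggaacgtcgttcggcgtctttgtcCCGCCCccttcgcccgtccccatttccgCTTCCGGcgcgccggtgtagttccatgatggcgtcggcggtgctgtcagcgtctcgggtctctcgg
Cox7a2, chr9:79759804-79760103, minus strand: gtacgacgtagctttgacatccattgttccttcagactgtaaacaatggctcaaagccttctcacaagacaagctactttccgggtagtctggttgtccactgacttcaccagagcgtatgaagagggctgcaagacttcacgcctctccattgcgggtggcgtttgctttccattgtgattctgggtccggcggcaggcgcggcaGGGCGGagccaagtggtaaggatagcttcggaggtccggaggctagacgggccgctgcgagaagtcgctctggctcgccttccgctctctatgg
Cox7a1, chr7:30183921-30184220, plus strand: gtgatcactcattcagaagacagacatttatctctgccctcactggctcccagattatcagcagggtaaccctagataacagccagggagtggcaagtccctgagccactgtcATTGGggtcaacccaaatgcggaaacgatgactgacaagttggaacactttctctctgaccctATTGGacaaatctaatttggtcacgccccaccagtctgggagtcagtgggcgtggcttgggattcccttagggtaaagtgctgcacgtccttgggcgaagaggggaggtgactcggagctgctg
Cox6a1 holds 7 matches, 3 of them to the NRF1 motif, of which a pair overlaps on opposite strands. Cox7a2 holds 1 match, to the SP motif, and Cox7a1 holds 2, both to CCAAT. The ratio of observed to expected CpG dinucleotides was 1.08 at Cox6a1, 0.833 at Cox7a2 and 0.333 at Cox7a1. Peaks were present in 6 libraries at Cox6a1, in 4 at Cox7a2 and in none at Cox7a1.

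The NRF1, ETS, YY1 and ERR motifs were each held by a minority of OXPHOS promoters, at larger shares than over all promoters, and the shares are given without a test. A promoter sequence from RefSeq was matched for 73 of the 91 genes and for 16874 protein-coding genes in all. The NRF1 motif was held by 21 OXPHOS promoters (28.8%), against 9.15% of all promoters. The shares were 23.3% and 12.2% for the ETS motif, 13.7% and 3.25% for the YY1 motif, and 11% and 3.88% for the ERR motif. The SP motif (46.6% and 48%), CCAAT (43.8% and 39.1%), the E-box (8.22% and 8.1%) and TATA (9.59% and 13.1%) were held by more similar shares. The median CpG ratio was 0.833 over OXPHOS promoters and 0.600 over all promoters. With 500 bp searched to each side of the start, ERR was held by 43.8% of OXPHOS promoters against 14.2% of all, while the SP motif reached 76.7% against 63.4% and CCAAT 60.3% against 70.1%. A match is a run of letters and does not show that a factor was bound.

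**Figure D1:**
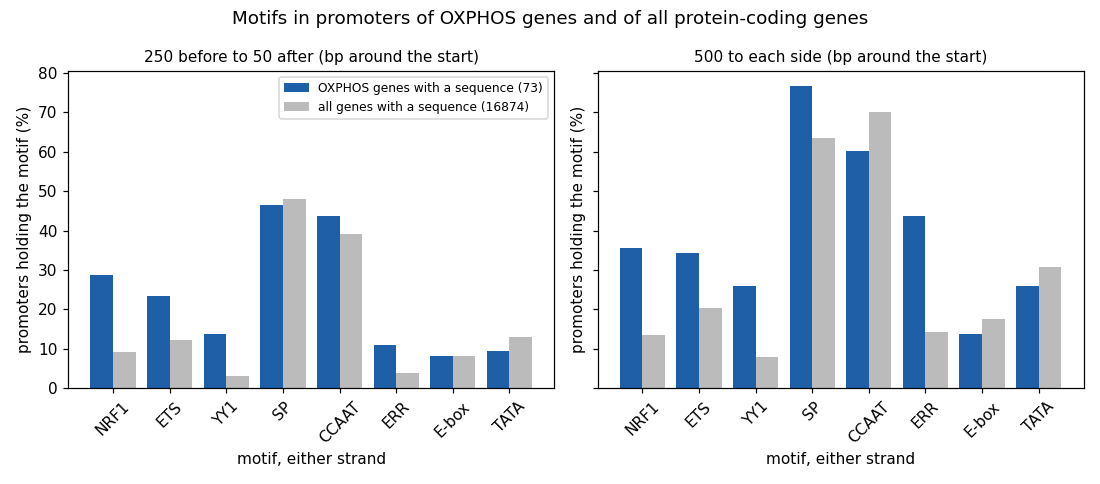
Share of promoters, in percent, that hold each of 8 motifs on either strand, for the 73 OXPHOS genes with a sequence (blue) and for all 16874 genes with a sequence (grey), in the 300-base window (left) and within 500 bp of the start to each side (right). In the left panel the NRF1 bars stand at 28.8% and 9.15%, and the SP bars at 46.6% and 48%.

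Motif content and peak presence were set side by side as a description. OXPHOS genes with the NRF1 motif had a peak in a median of 6 libraries and those without it in 4, and over all genes the medians were 6 and 2. For the ERR motif the medians were 6 and 4 over OXPHOS genes, but 1 and 2 over all genes. For the YY1 motif they were 3 and 5 over OXPHOS genes and 5 and 2 over all genes. The 68 OXPHOS genes with a sequence and a peak had a median CpG ratio of 0.838, and the 5 with a sequence and no peak had 0.432. These 5 were Ndufaf1, with a ratio of 0.940, and Cox6b2, Cox7a1, Cox8b and Cox7b2, with ratios of 0.115 to 0.564.

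OXPHOS summits lay close to the start. The median distance to the nearest start of the gene was 77.5 bp, against 139 bp for the promoter peaks of all genes, and 57.5% of OXPHOS summits lay within 100 bp of a start, against 41%. A larger number of annotated starts (a median of 4 against 3) can also shorten this distance, and its part was not tested. Of the 438 summits, 203 (46.3%) lay outside the annotated gene, 167 (38.1%) in an exon and 68 (15.5%) in an intron. A neighbouring protein-coding gene on the other strand started within 1000 bp upstream for 32 OXPHOS genes (35.2%, against 11% of all genes). Examples are Atp5j, the coupling factor 6 subunit of the ATP synthase, which starts 93 bp from Gabpa, a subunit of the factor GABP itself, and Ndufs6, which starts 51 bp from Mrpl36, a mitochondrial ribosomal protein gene. The median number of libraries with a peak was 6 for OXPHOS genes with such a neighbour and 4 for those without, and over all genes it was 6 and 2. For 84 of the 438 peaks (19.2%) the start of another gene was nearer than that of the OXPHOS gene, so these peaks cannot be given to one gene. No peak was shared by a pair of OXPHOS genes.

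The share of gene and library pairs with a peak, pooled over the 16 libraries, was 43% for complex III (55 peaks), 35.9% for the complex I assembly factors, 34.4% for complex II, 32.6% for complex V, 30.9% for complex I and 15.8% for complex IV (43 peaks). The order changed between the groups. Complex III had a share of 65.6% in TPdh-/- TM, 46.9% in WT TE and 28.1% in WT TM, above the other complexes in each, but 31.2% in TPdh-/- TE, below complex II (50%), the assembly factors (40.6%) and complex V (34.7%). Complex IV had the lowest share in each group, 11.8% to 19.1%, and 7 of the 9 OXPHOS genes without any peak were Cox genes. These Cox genes, mostly tissue-restricted forms, are counted in its share. In most groups complex IV would not rank lowest if they were left out. The genes share the same 16 libraries, so these shares are a description.

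Complex I had a peak in some library at each of its 36 genes. Of its core subunits, Ndufs1, which carries iron-sulfur clusters and takes part in NADH oxidation, had a peak in 8 libraries, and Ndufv1, which binds NADH and flavin, in 6. Ndufs7, Ndufs8 and Ndufv2 had one in 4 each, and Ndufs3 in 2. Accessory subunits led the complex, with Ndufb5 in 12 libraries and Ndufv3, Ndufb2 and Ndufa5 in 10 each. Ndufb5 had a fold enrichment (the summit pileup over the local background, with 1 added to both) of 6.1, 5.4, no peak and 6.01 in WT TE replicates 1 to 4. In TPdh-/- TE it was 5.37, no peak, 4.69 and 4.47, and in WT TM it was 4.99 and 7.24 in replicates 1 and 4 only. All 4 TPdh-/- TM libraries had a peak, at 5.74, 6.94, 5.48 and 7.19. The libraries without a peak at Ndufb5 were WT TE replicate 3, TPdh-/- TE replicate 2 and WT TM replicates 2 and 3, each of which was among the 5 with the fewest OXPHOS promoter peaks. At Ndufb2 the peaks spanned 5 to 11 fragments at the summit. Among the assembly factors, Ndufaf5 and Ndufaf7 had a peak in 9 libraries, and Ndufaf1 in none.

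All 4 subunits of complex II, which also belongs to the TCA cycle, had peaks. Sdhd, a membrane anchor, had a peak in 7 libraries, Sdha, the flavoprotein that oxidises succinate, in 6, Sdhc, the other anchor, in 5 and Sdhb, the iron-sulfur subunit, in 4. The 4 genes had peaks together only in TPdh-/- TE replicate 4 and TPdh-/- TM replicate 4. In WT TE replicates 1 and 3, TPdh-/- TE replicate 2 and WT TM replicates 3 and 4 none of them had one. Sdhb and Sdhc had no peak in any of the 8 WT libraries. With Cox7a2 they were the 3 OXPHOS genes with a peak in at least 4 TPdh-/- and no WT libraries, against 1.2% of all genes, a rule set after these values were seen. The opposite was seen at no OXPHOS gene and at 0.137% of all genes. In TPdh-/- TE replicates 1 and 4 Sdhb had 6 and 8 fragments at the summit, and in TPdh-/- TM replicates 3 and 4 it had 6 and 5. Sdhc had 3 and 6 fragments in TPdh-/- TE replicates 3 and 4, and 3, 5 and 7 in TPdh-/- TM replicates 1, 3 and 4. The lowest pileup in a list was 3 to 4 fragments in TPdh-/- libraries and 4 to 9 in WT libraries.

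In complex III, Uqcrc2 was the one OXPHOS gene with a peak in all 4 WT TM libraries, at a fold enrichment of 6.38, 5.03, 4.3 and 5.5. In TPdh-/- TM it had no peak in replicate 1 and 3.96, 5.36 and 4.89 in the others, in WT TE 6.07 and 4.46 in replicates 2 and 3, and in TPdh-/- TE 4.18, 7.03 and 6.17 in replicates 1, 3 and 4. Its values overlapped among the 4 groups. Uqcrq, a small subunit also known as the ubiquinone-binding protein, had a peak in 9 libraries, among them all 4 of WT TE, at 4.53, 6.69, 4.73 and 5.24. Uqcrfs1, the Rieske iron-sulfur protein, had a peak in 5 libraries.

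In complex IV the split ran between isoforms. Cox4i2, Cox6a2, Cox6b2, Cox7a1, Cox8b, Cox8c and Ndufa4l2 are forms used mainly in muscle, lung, testis or hypoxic cells. Over these 7 genes and 16 libraries 1 peak was present, 0.893% of pairs, at Ndufa4l2 in TPdh-/- TE replicate 3, with 4 fragments at the summit. Their widely used counterparts Cox4i1, Cox6a1, Cox6b1, Cox7a2, Cox8a and Ndufa4 had 30 peaks, 31.2% of pairs, with Ndufa4 in 8 libraries, Cox4i1 and Cox6a1 in 6 each, Cox7a2 and Cox8a in 4 each and Cox6b1 in 2. Cox6a1 had a peak in 1 WT TE, 3 TPdh-/- TE and 2 WT TM libraries and in no TPdh-/- TM library. Cox5a and Cox5b, nuclear subunits that are used across tissues, had a peak in 1 library each, with 5 and 18 fragments. Cox7c, an accessory subunit, led the complex with 11 libraries. The other Cox gene without a peak was Cox7b2.

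The subunits of complex V that make up its catalytic head had a promoter peak in unequal numbers of libraries. Atp5b had a fold enrichment of 6.49, 5.94, 4.22 and 6.13 in the 4 WT TE libraries. In TPdh-/- TE it was 4.61, no peak, 4.77 and 6.55, in WT TM 6.58 and 6.1 in replicates 1 and 4 only, and in TPdh-/- TM no peak, 3.17, 5.69 and 6.47. The number of fragments behind these peaks was 10 to 18 in WT TE and 3 to 9 elsewhere, so the similar fold enrichments rest on unequal depth. Atp5j had a peak in 11 libraries with 4 to 19 fragments, Atp5a1, the α subunit, in 8 and Atp5c1, the central γ subunit, in 6. The median fold enrichment where a peak was present was 6.02 at Atp5b, 5.57 at Atp5a1 and 5.01 at Atp5c1. Atp5o, the stator subunit known as OSCP, had one in 3 libraries, and its other gene record had none.

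**Figure D2:**
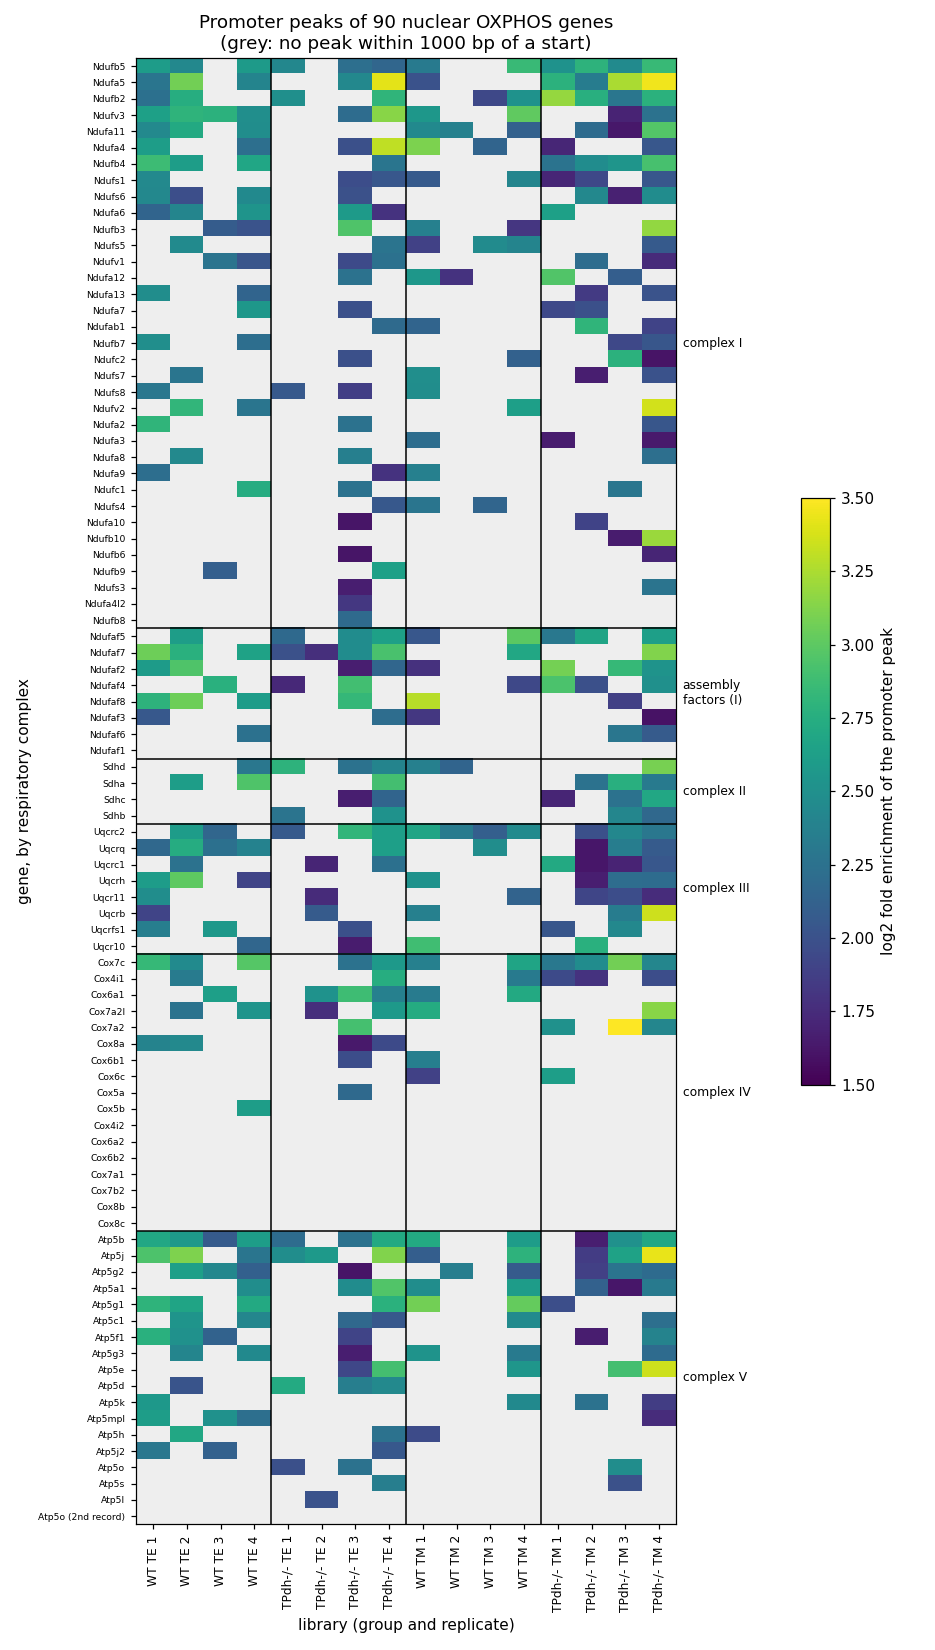
Log2 fold enrichment (colour) of the promoter peak of 90 of the 91 OXPHOS genes (rows, grouped by complex) in each of the 16 libraries (columns, 4 per group), with grey where no peak lay within 1000 bp of a start. No row is filled in all 16 columns, and WT TM replicates 2 and 3 hold the fewest peaks, 5 and 6.

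Other genes of the pathway also had promoter peaks. Of 35 genes outside the 91, mostly assembly factors and carriers, with Cyc1 (cytochrome c1), a subunit of complex III whose symbol lies outside the rule, all had a promoter peak in some library, in 36.2% of pairs, led by Cox18 and Lrpprc with 12 libraries each. Of 12 transcriptional regulators of the pathway all had a peak in some library, in 47.4% of pairs, with Gabpa, Sp1 and Tfb1m in 12 libraries each and Ppargc1a, the coactivator PGC-1α, in 1. Esrra, which encodes ERRα, had a peak in 4 WT TE, no TPdh-/- TE, 2 WT TM and 1 TPdh-/- TM libraries. It was named after its values were seen, its pattern in TE was seen at 0.21% of all genes, and no gene could pass the adjusted test on presence. By comparison, 78 mitochondrial ribosomal protein genes had a peak in 30% of pairs and 84 cytosolic ribosomal protein genes in 28.3%, beside 30.1% for OXPHOS genes.

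The number of OXPHOS genes with a promoter peak varied widely between replicates. It was 33, 34, 15 and 34 in the WT TE libraries, a mean of 29 ± 9.35 (SD, n = 4). In TPdh-/- TE it was 13, 8, 47 and 41, a mean of 27.3 ± 19.6 (SD, n = 4). In WT TM it was 35, 5, 6 and 27, a mean of 18.3 ± 15.1 (SD, n = 4), and in TPdh-/- TM it was 21, 30, 34 and 55, a mean of 35 ± 14.4 (SD, n = 4). The groups overlapped in every comparison. The share of all protein-coding genes with a promoter peak moved with these counts, from 4.66% in WT TM replicate 3 to 33.6% in TPdh-/- TM replicate 4. The share of OXPHOS genes exceeded that of all genes in the libraries other than WT TM replicate 2 (5.49% against 7.9%) and TPdh-/- TM replicate 1 (23.1% against 24.8%). Of the 91 genes, 61 had a peak in some WT TE library, 69 in TPdh-/- TE, 48 in WT TM and 67 in TPdh-/- TM. Of all 21938 protein-coding genes, 8099 had one in WT TE, 10556 in TPdh-/- TE, 9053 in WT TM and 12642 in TPdh-/- TM.

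When each list was cut to its 2290 strongest peaks, the length of the shortest list, the order of the groups was different. The numbers were then 17, 11, 15 and 20 in WT TE, 2, 1, 0 and 5 in TPdh-/- TE, 3, 0, 0 and 4 in WT TM, and 4, 0, 3 and 9 in TPdh-/- TM. Each WT TE library then lay above each library of the other groups. The same held for all genes, of which 7.44% to 9.57% had a promoter peak in WT TE and 0.442% to 3.73% elsewhere, and WT TE also had the highest background coverage, so cell state, genotype and depth cannot be told apart. In these lists 51 OXPHOS genes had a peak somewhere, 43 of them in WT TE (84.3%) and 27 in WT TE alone (52.9%). Of the 5796 genes in all with a peak in these lists, 77.9% had one in WT TE and 47.9% in WT TE alone.

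**Figure D3:**
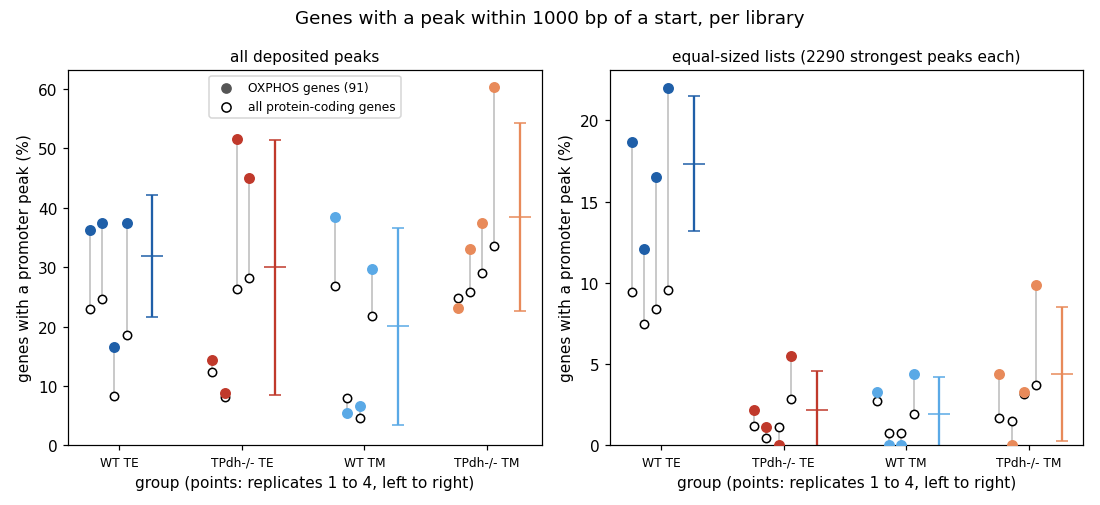
Share of genes with a promoter peak, in percent, for the 91 OXPHOS genes (coloured points) and all protein-coding genes (open points) in each library, with the mean and SD of the OXPHOS share per group (bars, n = 4, cut at 0), for all deposited peaks (left) and equal-sized lists (right). On the left the groups overlap, and on the right the 4 WT TE libraries lie above the other 12.

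The peaks behind these counts were small. The median pileup at OXPHOS summits was 14, 9.5, 15 and 15 fragments in the WT TE libraries, and between 3.5 and 7 in every other library. The highest pileup at any OXPHOS promoter was 25 fragments, at Ndufaf8 in WT TE replicate 4. No OXPHOS peak in WT TE rested on 4 or fewer fragments, whereas 20 of the 47 in TPdh-/- TE replicate 3 and 20 of the 55 in TPdh-/- TM replicate 4 did. With such peaks left out, a setting chosen after seeing the data, the mean number of OXPHOS genes with a peak was 29 in WT TE, 19.8 in TPdh-/- TE, 16.8 in WT TM and 21.5 in TPdh-/- TM. Over all genes the share with such a peak was 8.36% to 24.7% in WT TE, 2.42% to 25.5% in TPdh-/- TE, 4.66% to 23.6% in WT TM and 13.3% to 23% in TPdh-/- TM. Median fold enrichments at OXPHOS promoters were 4.83 to 6.09 in WT TE, 3.72 to 5.29 in TPdh-/- TE, 4.43 to 5.73 in WT TM and 3.96 to 4.96 in TPdh-/- TM, close to those over all promoter peaks of the same libraries (5.04 to 5.6 in WT TE).

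**Figure D4:**
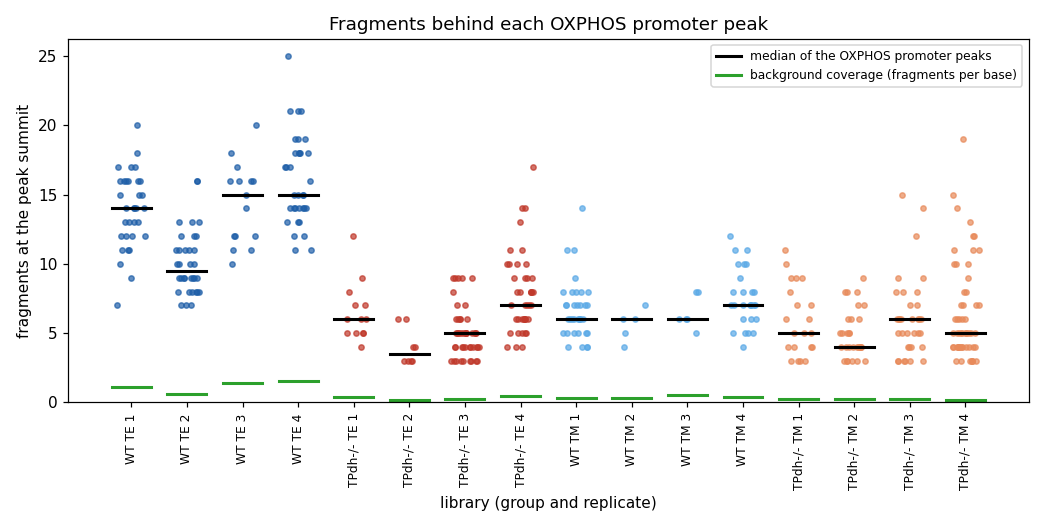
Number of fragments at the summit of each OXPHOS promoter peak (points) by library, with the median of the library (black line) and its background coverage in fragments per base (green line). The WT TE medians lie between 9.5 and 15 fragments and those of the other 12 libraries between 3.5 and 7.

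In TM, more OXPHOS genes had promoter peaks in more TPdh-/- libraries than the reverse, as did genes in general. The number of libraries with a peak was higher in TPdh-/- TM for 48 OXPHOS genes (52.7%, against 42.8% of all genes) and higher in WT TM for 12 (13.2%, against 10.9%). Ndufb4 and Uqcrc1 had a peak in all 4 TPdh-/- TM libraries and in no WT TM library, 2 of 91 genes, where this pattern was seen at 0.556% of all genes. The opposite pattern was seen at no OXPHOS gene and at 0.00456% of all genes. A difference of at least 3 libraries towards TPdh-/- TM was seen at 7 OXPHOS genes (Cox7a2, Ndufa5, Ndufb4, Ndufs6, Sdha, Sdhc and Uqcrc1), against 4.59% of all genes, and towards WT TM at none, against 0.137%. In two-sided Fisher's exact tests on 4 against 4 libraries the smallest possible p is 0.0286, and adjusted by Benjamini and Hochberg over the 21938 genes no gene could pass. Unadjusted, 123 genes reached it in TM, the 2 OXPHOS genes among them.

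Ndufb4 (ENSMUSG00000022820.4, chr16:37647170-37654453, minus strand, GRCm38) had a fold enrichment of 4.8, 5.55, 5.84 and 7.55 in the TPdh-/- TM libraries and no peak in WT TM. In WT TE it was 7.31, 6.11 and 6.44 in replicates 1, 2 and 4, and in TPdh-/- TE 4.84 in replicate 4 only. Its summits rested on 5, 6, 7 and 10 fragments in TPdh-/- TM. With an absent peak set to a fold of 1, the log2 fold enrichment was higher in TPdh-/- TM than in WT TM by 2.55 ± 0.91 (SE), which did not pass the threshold (limma, adjusted p = 0.535). With an absent peak set to the lowest fold of its list the difference was 1.45, so its size depended on the value given to WT TM. The genotype difference in TM exceeded that in TE by 4.02 ± 1.28 (SE), and this also did not pass (limma, adjusted p = 0.438). In the equal-sized lists Ndufb4 had a peak in 2 WT TE libraries and in no TM library.

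Uqcrc1 (ENSMUSG00000025651.14, chr9:108936633-108949623, plus strand, GRCm38) had a fold enrichment of 6.56, 3.07, 3.25 and 4.13 in the TPdh-/- TM libraries and no peak in WT TM. In WT TE it was 4.76 in replicate 2, and in TPdh-/- TE 3.26 and 4.71 in replicates 2 and 4. The TPdh-/- TM summits rested on 7, 3, 3 and 4 fragments, and the lowest pileup in any WT TM list was 4. The difference in TM was 2.02 ± 0.84 (SE) on the log2 scale and did not pass (limma, adjusted p = 0.535). It was 0.92 with an absent peak at the lowest fold of its list, and 0.96 under quantile normalization. The peak in TPdh-/- TE replicate 2 lay 9388 bp downstream of the first start, near an internal transcript start, while the other summits lay between 133 bp upstream and 144 bp downstream of the first start. In the equal-sized lists Uqcrc1 had no peak. Background coverage was lower in every TPdh-/- TM library than in every WT TM library, so genotype and depth cannot be told apart at either gene.

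Over the 59 OXPHOS genes with a peak in at least 4 libraries, the fit on log2 fold enrichment called none in TM, while over the 8079 genes tested 0% were called higher and 0.0124% lower in TPdh-/-. At an unadjusted p under 0.05 there were 6 OXPHOS genes and 747 genes in all. The median difference was 0.57 over the OXPHOS genes and 0.57 over all genes tested. In equal-sized lists it was 0.01 over 6 OXPHOS genes and 0.14 over 885 genes. Quantile normalization makes the distributions of the libraries similar, though absent peaks are tied and take a value that can differ between libraries. It brings such medians close to 0, and the median difference was then -0.07 and 0.08. It was 0.11 over 15 OXPHOS genes and 0.68 over 2037 genes with a −log10 q-value of at least 5, and 0.28 and 0.39 with an absent peak at the lowest fold of its list. With a term for background coverage in the fit it was 0.32 and 0.44, and the counts were 3 and 379. The OXPHOS median was 0.35 without WT TM replicate 3 and 0.28 without TPdh-/- TM replicate 4, and the counts were 5 and 472 without WT TM replicate 2, 5 and 451 without WT TM replicate 3 and 4 and 487 without TPdh-/- TM replicate 4.

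In TE, OXPHOS genes were divided between the genotypes. The number of libraries with a peak was higher in TPdh-/- TE for 30 OXPHOS genes (33%, against 24.5% of all genes) and higher in WT TE for 27 (29.7%, against 20.6%). No OXPHOS gene had a peak in all 4 libraries of one genotype and none of the other, a pattern seen at 0.0684% of all genes towards TPdh-/- TE and 0.21% towards WT TE. A difference of at least 3 libraries was seen at 4 OXPHOS genes towards WT TE, against 2.1% of all genes, and at none towards TPdh-/- TE, against 0.871%. These 4 were Atp5mpl, a small subunit of the ATP synthase, Ndufa11, a membrane subunit of complex I, and Uqcrh and Uqcrq of complex III. Uqcrh, the hinge protein, which contacts cytochrome c1, had a fold enrichment of 6.09, 8.01 and 3.76 in WT TE replicates 1, 2 and 4 and no peak in TPdh-/- TE. Ndufa11 had 5.42, 6.57 and 5.59 in the same WT TE libraries and no peak in TPdh-/- TE.

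The fit called no OXPHOS gene in TE, with 0.0124% of all genes called higher and 0% lower in TPdh-/-. At an unadjusted p under 0.05 there were 3 OXPHOS genes and 520 genes in all, and the median differences were -0.14 and -0.18. Under quantile normalization both medians were 0.02. In equal-sized lists they were -1.64 over 6 OXPHOS genes and -1.44 over 885 genes. Over genes with a peak in at least 1 library they were -0.03 and 0. With a −log10 q-value of at least 5 they were -0.81 and -0.71, and with an absent peak at the lowest fold of its list 0.0045 and -0.03, so the sign of the OXPHOS median depended on the value given to absent peaks. With −log10 q-value in place of fold enrichment they were -0.24 and -0.32, and with a term for background coverage in the fit -0.50 and -0.65, with counts of 3 and 306. The OXPHOS median was 0.01, of the opposite sign, without TPdh-/- TE replicate 1 or 2, -0.09 without WT TE replicate 1 or 2, -0.39 without WT TE replicate 3, -0.38 without TPdh-/- TE replicate 3 and -0.51 without TPdh-/- TE replicate 4. The OXPHOS count was 10 beside 732 over all genes without WT TE replicate 3, 5 beside 418 without TPdh-/- TE replicate 2, 5 beside 483 without TPdh-/- TE replicate 3 and 7 beside 646 without TPdh-/- TE replicate 4. Without WT TE replicate 1 it was 3 beside 344. The median over all genes ran from -0.50 without TPdh-/- TE replicate 4 to 0 without TPdh-/- TE replicate 2. In the equal-sized lists 6 OXPHOS genes could be tested among 885 genes, and 2 of them were lower in TPdh-/- TE, where 26.2% of all genes tested were called lower. These were the complex I assembly factors Ndufaf7, with a difference of -2.12 ± 0.71 (SE), and Ndufaf8, with -2.11 ± 0.73 (SE) (limma, adjusted p = 0.0452 for both). In these lists Ndufaf7 had a peak in 3 WT TE and 1 TPdh-/- TM libraries, and Ndufaf8 in 3 WT TE and 1 WT TM libraries. They reached the filter of 4 libraries mainly through WT TE, where they were high, so these calls depend on the filter. With all peaks kept, Ndufaf7 had a peak in 3 WT TE and 4 TPdh-/- TE libraries and its difference was 0.17, of the opposite sign, while that of Ndufaf8 was -1.40, and neither passed (limma, adjusted p = 1 and 0.749). List length and background coverage differ between these groups, and their part in the calls cannot be told apart from that of genotype.

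In WT cells the number of libraries with a peak was higher in TE for 37 OXPHOS genes (40.7%, against 23.2% of all genes) and higher in TM for 15 (16.5%, against 18.5%). No OXPHOS gene was separated, beside 0.269% of all genes towards WT TE and 0.00912% towards WT TM, and 6 differed by at least 3 libraries towards WT TE (Atp5f1, Atp5mpl, Ndufa6, Ndufb4, Ndufs6 and Uqcrq), against 2.62% of all genes, and none towards WT TM, against 0.333%. No OXPHOS gene was called by the fit, with 0.0248% of all genes called higher in TM and 0% lower. At an unadjusted p under 0.05 there were 5 OXPHOS genes and 537 genes in all, and the median differences were -0.50 and -0.36. Under quantile normalization they were -0.07 and 0.06, with a −log10 q-value of at least 5 -0.77 and -0.72, and with an absent peak at the lowest fold of its list -0.23 and -0.19. In equal-sized lists they were -1.40 over 6 OXPHOS genes and -1.42 over 885 genes. Over genes with a peak in at least 1 library they were -0.11 and 0. With a term for background coverage in the fit they were -0.65 and -0.67, and the counts were 1 and 242. The OXPHOS count was 13 beside 806 over all genes without WT TE replicate 3, 1 beside 351 without WT TE replicate 1, 3 beside 440 without WT TE replicate 4 and 3 beside 363 without WT TM replicate 2. The OXPHOS median was -0.24 without WT TE replicate 2, -0.28 without WT TE replicate 4 and -0.18 without WT TM replicate 2 or 3, and the median over all genes ran from -0.59 without WT TE replicate 3 to -0.11 without WT TM replicate 3. In the equal-sized lists Ndufaf7 was lower in WT TM (−2.12 ± 0.71, SE, limma, adjusted p = 0.0456), where 26.4% of genes tested were called lower. The 3 WT TE peaks behind its call in TE also gave this call, and it passed the filter mainly through them. With all peaks kept its difference was -1.44 and did not pass (limma, adjusted p = 0.723). Background coverage was higher in every WT TE library than in every WT TM library, so cell state and depth cannot be told apart.

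In TPdh-/- cells the number of libraries with a peak was higher in TM for 37 OXPHOS genes (40.7%, against 38.5% of all genes) and higher in TE for 21 (23.1%, against 16.1%). None was separated, beside 0.397% of all genes towards TM and 0.0182% towards TE. Towards TM, 3 genes differed by at least 3 libraries (Ndufa11, Ndufb4 and Uqcrh), against 3.82% of all genes. Towards TE there were also 3, Atp5d, the δ subunit of the ATP synthase, Cox6a1 and Ndufaf7, against 0.419%. Atp5d had a fold enrichment of 6.61, 5.13 and 5.42 in TPdh-/- TE replicates 1, 3 and 4 and no peak in TPdh-/- TM. The fit called no OXPHOS gene and 0% of all genes, and at an unadjusted p under 0.05 there were 3 OXPHOS genes and 670 genes in all. The median difference was 0.49 over OXPHOS genes and 0.52 over all genes tested, and under quantile normalization 0.11 over both. In equal-sized lists it was 0 over 6 OXPHOS genes and 0.72 over 885 genes. Over genes with a peak in at least 1 library it was 0.10 and 0.41. It was 0.12 and 0.69 with a −log10 q-value of at least 5, and 0.22 and 0.23 with an absent peak at the lowest fold of its list. With a term for background coverage in the fit it was 0.43 over both, and the counts were 3 and 423. The OXPHOS median was 0.32 without TPdh-/- TE replicate 2, where that over all genes was also 0.32, and 0.21 without TPdh-/- TM replicate 4. The OXPHOS count was 1 beside 460 over all genes without TPdh-/- TE replicate 2, 6 beside 870 without TPdh-/- TE replicate 4 and 5 beside 671 without TPdh-/- TM replicate 1.

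Whether the effect of genotype was unlike in TM and in TE was tested in the same fit. No OXPHOS gene passed, with 0% of all genes called higher and 0.0248% lower. At an unadjusted p under 0.05 there were 11 of 59 OXPHOS genes and 835 of 8079 genes, and the median was 0.87 for both. Under quantile normalization there were 5 and 603, with medians of -0.02 and 0.07. With an absent peak at the lowest fold of its list there were 7 and 639, with medians of 0.41 and 0.42, and with a term for background coverage in the fit 6 and 702, with medians of 1.04 and 1.06. With a −log10 q-value of at least 5 there were 2 of 15 and 306 of 2037, with medians of 0.91 and 1.41. The medians were 1.21 and 1.89 in equal-sized lists, and 0.45 and 0.43 over genes with a peak in at least 1 library. The OXPHOS count was 4 beside 624 over all genes without TPdh-/- TM replicate 4, 5 beside 631 without WT TE replicate 2, 6 beside 725 without WT TE replicate 4 and 6 beside 594 without TPdh-/- TE replicate 2. It was 7 without WT TE replicate 1, TPdh-/- TE replicate 1, WT TM replicate 2 or TPdh-/- TM replicate 3, beside 610, 653, 601 and 711. The OXPHOS median was 0.51 without TPdh-/- TM replicate 4 and 0.52 without TPdh-/- TE replicate 2. In the equal-sized lists none of the 6 OXPHOS genes tested was called, where 9.04% of genes were called higher and 0.113% lower. Nor was any called there in TM or between the cell types in TPdh-/-, where 0.226% of genes were called higher in TPdh-/- TM in each case. None was called higher in TPdh-/- TE than in WT TE (0.339% of genes) or in WT TM than in WT TE (0.226%). Each of the 4 comparisons of groups shares libraries with another, so their results are not independent of each other.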

How the data were processed

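The 16 libraries were analysed as deposited peak lists, 1 per library, grouped by their titles. Per the labels and the study's methods, the authors trimmed reads with Trimmomatic, aligned them to GRCm38 with BWA 0.7.17 and called peaks with MACS2 2.2.7.1. Each list names 1 library, so replicates appear not to have been pooled, and whether reads were shifted for the transposase cut is not given in the sources used here. The authors deposited for each peak a fold enrichment, which is a ratio of summit pileup to local background with 1 added to both, and its −log10 p-value and −log10 q-value. Read totals and coverage tracks were not used here.

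The summit pileup and background of each peak were solved from the fold enrichment and the p-value, and the 0.1% quantile of the backgrounds of a list served as background coverage. Gene starts came from GENCODE M21 on GRCm38. Promoter sequences, motifs and CpG ratios came from RefSeq for GRCm38, and 0 of the sequences used differed from the genome. Presence was compared by Fisher's exact test over 21938 genes. limma 3.58.1 (R 4.3.3, eBayes with trend, 4 group means) was fitted to log2 fold enrichment over the genes with a peak in at least 4 libraries, with an absent peak set to a fold of 1, and called at an adjusted p under 0.05. The fit was tested on simulated data, and a difference that did not pass is not shown to be absent. Other steps used Python 3.11.15 and scipy 1.17.1. Named genes were core subunits, isoform pairs, genes separated or called in a comparison, genes with a peak in no or most libraries and those with the highest −log10 q-value, and genes with a difference of at least 3 libraries were named after their values were seen. The genes, lists and tests were chosen with earlier results of these data known. Values of 1 OXPHOS gene and 1 marker gene are not reported here on their own. Alternatives were the window, the way of assigning a peak, the peak threshold, equal-sized lists, the filter, the value of an absent peak, scaling, a depth covariate, the replicate number and each library left out.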

Additional observations from a re-analysis of the deposited data

Results flagged for a closer look

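Among 16 combinations of measure and group, 3 had 1 library far from the other 3 by Dixon's test, which by chance happens in about 1 in 20. In WT TE, replicate 3 had 15 OXPHOS genes with a promoter peak, while the other 3 libraries had 33 or 34. Its list is also the shortest, with 2290 peaks, and its share of all genes with a promoter peak was 8.36%, against 18.6% to 24.7% in the others. In TPdh-/- TM, replicate 2 had a median fold enrichment of 3.96 at OXPHOS promoters, while the others had 4.82 to 4.96. Over all promoter peaks its median was 4.34, also the lowest of the group. In WT TM, replicate 4 had a median pileup of 7 fragments at OXPHOS summits, while the other 3 had 6 each, a gap of 1 fragment. The part of list length and depth in these values was not tested.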

How the results depend on the processing

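The mean number of OXPHOS genes with a promoter peak moved by less than 1 SD with a 500 bp window, with any overlap counted, with starts of protein-coding transcripts only, without peaks of 4 or fewer fragments and with any library left out. Without peaks of 4 or fewer fragments the TPdh-/- TM mean, the highest with all peaks kept, fell below that of WT TE. With a library left out the mean number was 27.3 to 33.7 in WT TE, 20.7 to 33.7 in TPdh-/- TE, 12.7 to 22.7 in WT TM and 28.3 to 39.7 in TPdh-/- TM. With a −log10 q-value of at least 5 it was 15 in WT TE, 7 in TPdh-/- TE, 4.5 in WT TM and 9.75 in TPdh-/- TM, and in equal-sized lists 15.8 in WT TE, 2 in TPdh-/- TE, 1.75 in WT TM and 4 in TPdh-/- TM. The number of genes separated in TM was 0 with a −log10 q-value of at least 5 and 0 in equal-sized lists. With a difference of at least 3 libraries it was 7 in TM, 4 in TE, 6 in WT TM against WT TE and 6 in TPdh-/- TM against TPdh-/- TE, since that rule is looser. With a 500 bp window it was 1 in WT TM against WT TE.

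With a library left out, separated genes in TM numbered 2 to 4, and 4 without TPdh-/- TM replicate 1 or 2. In TE they numbered 0 to 2, with 2 without WT TE replicate 3 and 1 without WT TE replicate 2 or TPdh-/- TE replicate 4. In WT TM against WT TE they numbered 0 to 3, with 3 without WT TE replicate 3 and 1 without WT TE replicate 2 or 4 or WT TM replicate 3. In TPdh-/- TM against TPdh-/- TE they numbered 0 to 2, with 2 without TPdh-/- TM replicate 1 and 1 without TPdh-/- TM replicate 4 or TPdh-/- TE replicate 1, 2 or 4. A rule of 3 against 4 libraries is easier to meet. limma called 0 OXPHOS genes with any library left out and under the other settings, except 2 in TE and 1 in WT TM against WT TE in equal-sized lists. Those calls were at Ndufaf7 and Ndufaf8, which reached the filter of 4 libraries mainly through WT TE, where they were high. The share of promoters with a motif within 500 bp to each side was 26% for YY1, 76.7% for SP, 60.3% for CCAAT, 43.8% for ERR and 26% for TATA, as the window is longer. The difference at Ndufaf7 in TE, called in equal-sized lists, had the opposite sign with all peaks kept (0.17). The cause of the other changes was not tested.

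Replicate numbers did not pair the libraries. Deviations from the group means correlated at -0.00057 on average between libraries of the same number (-0.086 to 0.0968), and 2 of 16 libraries correlated best with their own number. With the replicate number as a block, 0 OXPHOS genes were called in each comparison. Peaks of 3 fragments were listed in TPdh-/- TM but in no WT library, so an absent peak does not show a closed promoter. Background coverage was highest in WT TE, where the lists held 2290 to 19234 peaks, and its part in list length was not tested.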
